A study of Homo sapiens and Mus musculus with 20 samples.

Results

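The enzymes and the chaperone that fold, modify and crosslink collagen were followed in IMR90 cells, a line of human fetal lung fibroblasts. The 10 genes were chosen by symbol as the lysyl oxidases LOX, LOXL1, LOXL2, LOXL3 and LOXL4, the lysyl hydroxylases PLOD1, PLOD2 and PLOD3, the prolyl 4-hydroxylase subunit P4HA2 and the collagen chaperone SERPINH1. They were 10 of the 17554 genes listed in at least 1 of 3 IMR90 experiments, and all 10 were listed and tested in each experiment. Gene expression was measured by bulk RNA-seq in 12 IMR90 libraries of wild-type cells, in groups of 2. Levels are normalized reads, namely the reads counted for a gene divided by 1 size factor per library, and fold changes are on the scale of log2(value + 1). A485, an inhibitor of the acetyltransferase p300, was compared with Control2. MS-275, which inhibits histone deacetylases of class I, was compared with Control3. Pyruvate was compared with Control6. The labels record no treatment for the control cells, and all groups share the same cell line and genotype. The study text places the pyruvate experiment in senescent cells, whereas the labels give no passage for any library. IMR90 is a single cell line, and no label says that the 2 libraries of a group came from separate cultures, so p-values measure the spread between these libraries, which may be technical.

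Collagen chains are hydroxylated and folded in the endoplasmic reticulum before they are secreted. Prolyl 4-hydroxylases make the hydroxyproline that holds the triple helix together, and SERPINH1, also called HSP47, binds folded procollagen and escorts it toward the Golgi. Lysyl hydroxylases prepare lysines for glycosylation and crosslinking, with PLOD2 acting on the telopeptides at the chain ends. Outside the cell, lysyl oxidases oxidize lysines of collagen and elastin so that crosslinks form, and these steps set how stiff and how soluble the matrix of lung fibroblasts becomes.

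The labelled cell type was checked against its markers. All 9 fibroblast markers were listed in each experiment, with COL1A1 and COL1A2 among the highest. PECAM1 and CDH5 of endothelium, PTPRC and CD3E of leukocytes, and CDH1, SFTPC and KRT5 of epithelium were listed in none of the 3. Of the same lists VWF was listed in each experiment, at no more than 164 normalized reads, and EPCAM and CD14 in the A485 and MS-275 experiments, at no more than 208. The libraries held 24179065 to 46971227 reads, recovered from the deposited values by division. This recovery passed a stricter check only in the A485 experiment, where the libraries held 39194881 to 40557867 reads, so the other depths are less sure. In the MS-275 experiment the libraries that share a replicate number also shared deviations. COL1A1, for example, was at 507812 and 396171 normalized reads in Control3 and MS-275 replicate 1, and at 138600 and 123075 in replicate 2. For that reason the MS-275 values are given within each replicate number as well as between groups.

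The upstream promoters of 4 members are shown, namely LOX, LOXL1 and SERPINH1, which were called lower after A485, and PLOD2, which stood higher. LOX and PLOD2 held the same kinds of motif although they moved in opposite directions, and LOXL1 held none of the motifs searched. A link between motifs and direction was not tested. They are the 250 bases before the RefSeq start on GRCh38.p14, written 5′ to 3′ on the strand of the gene. Lower case marks the sequence and capitals mark motif matches on either strand.
LOX promoter, chr5:122078260-122078509, - strand: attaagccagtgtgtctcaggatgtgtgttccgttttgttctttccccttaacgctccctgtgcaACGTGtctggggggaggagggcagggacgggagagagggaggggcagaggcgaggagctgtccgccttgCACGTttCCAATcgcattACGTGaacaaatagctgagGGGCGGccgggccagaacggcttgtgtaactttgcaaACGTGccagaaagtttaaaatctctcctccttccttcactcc
PLOD2 promoter, chr3:146161185-146161434, - strand: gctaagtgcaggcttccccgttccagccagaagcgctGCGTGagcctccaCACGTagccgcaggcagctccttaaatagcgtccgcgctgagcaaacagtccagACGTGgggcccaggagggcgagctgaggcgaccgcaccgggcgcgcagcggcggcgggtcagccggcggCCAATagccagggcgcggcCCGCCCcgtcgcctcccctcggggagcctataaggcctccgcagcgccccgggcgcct
LOXL1 promoter, chr15:73926212-73926461, + strand: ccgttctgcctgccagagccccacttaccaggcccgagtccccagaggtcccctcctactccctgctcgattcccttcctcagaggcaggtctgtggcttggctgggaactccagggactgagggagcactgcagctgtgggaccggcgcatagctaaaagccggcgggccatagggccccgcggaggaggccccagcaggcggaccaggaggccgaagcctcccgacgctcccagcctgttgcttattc
SERPINH1 promoter, chr11:75562003-75562252, + strand: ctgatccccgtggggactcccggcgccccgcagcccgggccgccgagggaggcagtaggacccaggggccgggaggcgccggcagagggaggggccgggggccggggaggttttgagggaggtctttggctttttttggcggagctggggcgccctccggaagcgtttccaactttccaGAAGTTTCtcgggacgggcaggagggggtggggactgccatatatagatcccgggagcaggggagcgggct
The motifs searched were the hypoxia response core (ACGTG or GCGTG), the GC box (GGGCGG), the CCAAT box (CCAAT), the TATA box (TATAAA) and a heat shock element core (GAANNTTC), and no matches overlapped in the sequences shown. LOX held 4 matches to the hypoxia response core, PLOD2 held 3 and PLOD1 held 2, while the windows of LOXL1, LOXL3, LOXL4, PLOD3, P4HA2 and SERPINH1 held 0. Of all 34943 promoters of this length, 43.2% held at least 1 such match and 7.73% held 3 or more. SERPINH1, a heat shock protein gene, held 1 heat shock element core, which 5.80% of all promoters held. GC boxes were most numerous in LOXL4, with 6, in PLOD1, with 4, and in PLOD3, with 3, and 42.5% of all promoters held at least 1. A CCAAT box stood in LOX, PLOD2 and P4HA2 (32.0% of all promoters), and no member held the TATA box letters (10.8%). The P4HA2 window lies 762 bases from the start of the canonical GENCODE transcript. LOXL2 had no entry. These matches describe letters in a window and were not tested for binding.

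After A485, 4 of the 10 genes were called lower and 0 were called higher. A call required, in limma, an adjusted p under 0.05 together with an absolute log2 fold change above 1. The called genes were LOX, LOXL1, LOXL2 and SERPINH1, so that 3 of 5 lysyl oxidases and the collagen chaperone fell, whereas PLOD2 stood apart on the higher side. Across all 16084 genes tested, 10.4% were called, with 7.06% called lower and 3.31% called higher. An adjusted p under 0.05 was reached by 5 members and by 12.6% of all genes. The median log2 fold change of the 10 members was -0.76, beside 0.0088 over all genes tested. The 2 treated libraries lay outside the range of the control libraries for 9 of the 10 members, 2 above and 7 below, and for 61.0% of all genes, 30.4% above and 30.7% below.

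LOX, the founding lysyl oxidase, had 78266 and 60540 normalized reads in the Control2 libraries and 8356 and 12212 in the A485 libraries. Both A485 libraries lay far below both controls, and LOX fell by 2.77 on the log2 scale (SE 0.26, adjusted p = 0.00363), which made it 6.81-fold lower. LOXL1, which acts on elastin, fell from 5963 and 12639 to 1992 and 2422 normalized reads (log2 fold change -1.98, SE 0.36, adjusted p = 0.0222). Its control libraries differed more from each other than its A485 libraries did. LOXL2, a secreted oxidase of basement membrane collagen, fell from 43333 and 53700 to 13426 and 23024 (log2 fold change -1.46, SE 0.30, adjusted p = 0.0326). LOXL3 and LOXL4 were the lysyl oxidases with the fewest reads. LOXL3 had 469 and 988 normalized reads in Control2 and 366 and 474 after A485, which overlapped (log2 fold change -0.71, SE 0.39, adjusted p = 0.28). LOXL4 had 833 and 1662 in Control2 and 1759 and 2560 after A485 (log2 fold change 0.85, SE 0.37, adjusted p = 0.181), the only lysyl oxidase with a positive value in this comparison.

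The lysyl hydroxylases did not share a direction after A485. PLOD2 had 14395 and 11307 normalized reads in Control2 and 24329 and 26386 after A485, with both treated libraries above both controls. Its log2 fold change of 0.99 (SE 0.20, adjusted p = 0.03) passed the adjusted p and stood just under the fold change minimum of 1. PLOD1, which modifies lysines within the helix, was at 15722 and 22111 and then at 10179 and 11169 (log2 fold change -0.81, SE 0.22, adjusted p = 0.0642). PLOD3, which also carries glycosyltransferase activity, was at 7227 and 7563 and then at 4102 and 5252 (log2 fold change -0.67, SE 0.18, adjusted p = 0.0662). The treated libraries of PLOD1 and PLOD3 lay below their controls, but neither gene passed the test.

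P4HA2, a catalytic subunit of prolyl 4-hydroxylase, had 6420 and 8912 normalized reads in Control2 and 4079 and 5539 after A485. The groups did not overlap, and the difference did not pass the test (log2 fold change -0.67, SE 0.24, adjusted p = 0.124). SERPINH1 had 55619 and 49143 normalized reads in Control2 and 16175 and 17452 after A485. It fell by 1.64 on the log2 scale (SE 0.19, adjusted p = 0.0067), or 3.11-fold, with close agreement of libraries within each group.

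**Figure D1:**
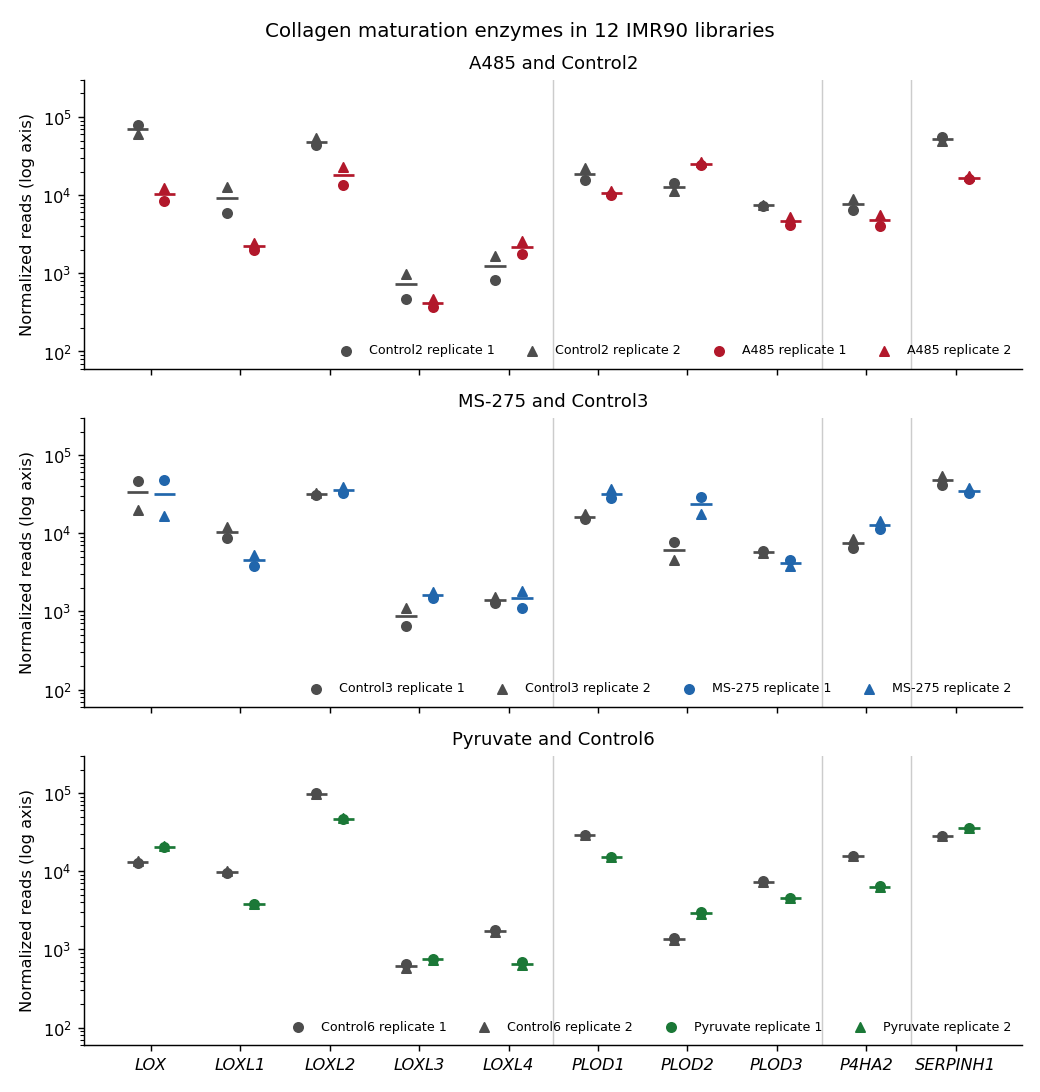
Normalized reads (log axis) of the 10 members in each of the 12 libraries, with 1 panel for each experiment. Circles and triangles are replicates 1 and 2, short lines are group means, and vertical lines separate lysyl oxidases, lysyl hydroxylases, P4HA2 and SERPINH1. LOX stood at 78266 and 60540 in Control2 against 8356 and 12212 after A485, and PLOD2 stood above its controls in all 3 panels.

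The make-up of each enzyme class was computed per length, as normalized reads per kb of the canonical transcript. Summed over the 5 lysyl oxidases, the level per kb was 29965 and 32475 in Control2 and 6691 and 10466 after A485. LOX made up 51.5% and 36.7% of that sum in Control2 and 24.6% and 23.0% after A485, while LOXL2 made up 38.9% and 44.4% and then 53.9% and 59.1%. Thus LOXL2 held the greatest share in both A485 libraries. The sum of the 3 lysyl hydroxylases per kb overlapped between groups, at 11684 and 13127 in Control2 and 11364 and 12653 after A485. Within it, the share of PLOD2 was 32.9% and 23.0% in Control2 and 57.1% and 55.6% after A485. In the order of levels per kb, SERPINH1 stood first in both groups, followed in Control2 by LOX and LOXL2, whose libraries overlapped, and after A485 by PLOD2. LOXL4 and LOXL3 stood last in both groups, overlapping in Control2 and not after A485. These shares were computed after the member values were seen and carry no test.

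The other genes of collagen folding, export and processing were taken from a list of 26, of which 25 were tested in the A485 experiment. In it 2 were called higher, 2 were called lower and 7 passed the adjusted p, with a median log2 fold change of -0.61. PCOLCE, an enhancer of procollagen C-proteinase, fell from 4715 and 12112 normalized reads to 1182 and 1145 (log2 fold change -2.70, SE 0.42, adjusted p = 0.0152). P4HA3, a further prolyl 4-hydroxylase subunit, fell from 215 and 230 to 53.9 and 26.7 (log2 fold change -2.52, SE 0.47, adjusted p = 0.0246). TMEM38B, an endoplasmic reticulum ion channel needed for normal collagen synthesis, rose from 766 and 885 to 2151 and 1791 (log2 fold change 1.25, SE 0.20, adjusted p = 0.0156). The second gene called higher was TLL2, a procollagen C-proteinase relative, at 5.35 and 11 and then 130 and 61.5, named after its values were seen.

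Of the 6 substrate genes, 3 were called lower and 0 higher after A485. COL1A1 fell from 620946 and 655334 normalized reads to 171288 and 194065 (log2 fold change -1.81, SE 0.35, adjusted p = 0.0269). COL3A1 fell from 129843 and 97854 to 37651 and 54222 (log2 fold change -1.32, SE 0.29, adjusted p = 0.0384), and the other called gene was COL5A1. COL1A2 was at 396683 and 498409 and then 175781 and 205457 (log2 fold change -1.23, SE 0.35, adjusted p = 0.071). ELN, which encodes elastin, was at 2656 and 381 in Control2 and 121 and 25.8 after A485 (log2 fold change -4.14, SE 1.06, adjusted p = 0.0559), with a wide gap between its control libraries.

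A pair of reference lists was read beside the members. Of 7 tested genes commonly used as TGF-β targets, 5 were called lower after A485, with a median log2 fold change of -2.21. The smallest p belonged to ACTA2, smooth muscle actin, which went from 14301 and 15727 to 582 and 678 (log2 fold change -4.57, adjusted p = 0.000721), and to POSTN, a matrix protein, which went from 8016 and 10888 to 596 and 954 (log2 fold change -3.63, adjusted p = 0.00239). Of 8 tested hypoxia-responsive genes, 2 were called lower, namely VEGFA (log2 fold change -2.50, adjusted p = 0.0026) and ADM (log2 fold change -2.29, adjusted p = 0.00325), and the list median was -1.07.

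Fibroblast markers moved with these results. The summed level of the 9 fibroblast markers was 1359630 to 1517070 normalized reads in Control2 and 428385 to 502190 after A485, and each of the 9 lay below its controls. Of the 4 epithelial markers, EPCAM alone was listed, at 47.7 to 64.2 in Control2 and 177 to 208 after A485, and of the 3 leukocyte markers CD14 alone, at 7.34 to 9.63 and 23.6 to 24.9. Of the 3 endothelial markers VWF alone was listed, at 34.2 to 102 in Control2 and at 0 after A485. The part of these differences in the fall of the members was not tested, and in bulk samples fewer cells of a type and less RNA per cell cannot be told apart. Without A485 replicate 1, 0 of the members were called, and without A485 replicate 2 only LOX was, while the counts over all genes dropped from 1667 to 229 and 301. LOXL2 lost its call without any of the 4 libraries and under quantile normalization (log2 fold change -0.80), and PLOD2 was called higher under that normalization (1.55), at equal library totals (1.38) and in edgeR (1.001). Over all genes, 746, 1677 and 542 were called higher at these settings, in the same order. At equal library totals LOXL4 was called higher as well (1.24), where the median of all genes was 0.40.

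After MS-275, 0 of the 10 genes were called, as were 0 of all 15883 genes tested in limma (0% of genes). At an unadjusted p under 0.05, 3 members and 10.9% of all genes (1730) passed. Those members were PLOD2 and PLOD1, with positive values, and LOXL1, with a negative value. The median log2 fold change of the members was 0.098, beside -0.0084 over all genes. The groups did not overlap for 7 members, 4 higher and 3 lower, against 38.9% of all genes, 19.5% higher and 19.3% lower. The fit behind these calls held no replicate block. With the replicate number as a block PLOD2 and LOXL1 were called, as were 2183 of all genes, although no label pairs the libraries.

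PLOD2 had 7746 and 4485 normalized reads in Control3 and 29184 and 17571 in the MS-275 libraries. Every MS-275 library lay above both controls, and the log2 difference was 1.91 within replicate number 1 and 1.97 within number 2. Between groups the log2 fold change was 1.94 (SE 0.45, adjusted p = 0.27). PLOD1 was at 15007 and 17718 in Control3 and 27940 and 36312 after MS-275, with log2 differences of 0.90 and 1.04 within the numbers (log2 fold change 0.97, SE 0.31, adjusted p = 0.38). PLOD3 lay on the other side, at 5837 and 5569 and then 4575 and 3775, with differences of -0.35 and -0.56 (log2 fold change -0.46, SE 0.30, adjusted p = 0.705). Per kb, the 3 lysyl hydroxylases summed to 9178 and 9124 in Control3 and 18795 and 18227 after MS-275, so that the groups lay clearly apart. The share of PLOD2 in that sum was 22.5% and 13.1% in Control3 and 41.4% and 25.7% after MS-275, and that of PLOD3 was 22.5% and 21.6% and then 8.63% and 7.34%.

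**Figure D2:**
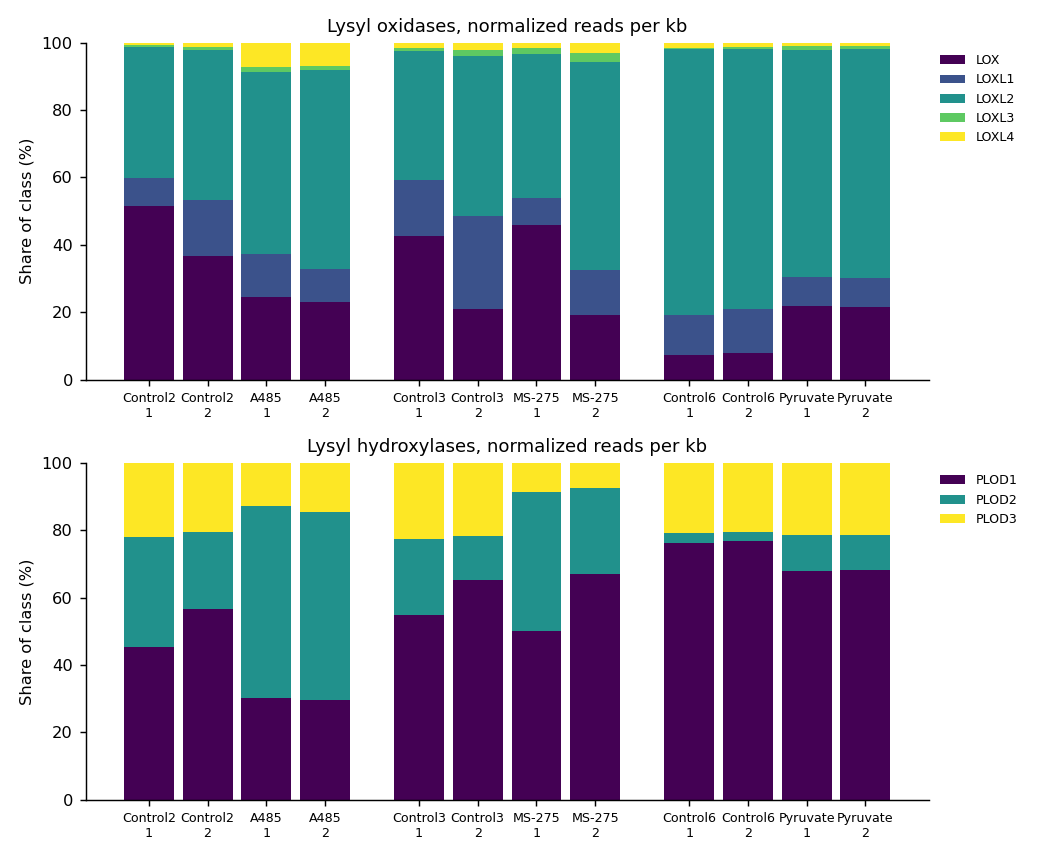
Share (%) of each gene in the summed normalized reads per kb of the 5 lysyl oxidases (upper panel) and of the 3 lysyl hydroxylases (lower panel), with 1 stacked bar for each of the 12 libraries, labelled by group and replicate. PLOD2 took 57.1% and 55.6% of the lysyl hydroxylase sum after A485 and 10.6% and 10.3% after pyruvate, and in each experiment both treated libraries stood above both controls, with the pyruvate direction turning once the GC trend was removed.

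Among the lysyl oxidases, LOXL1 had 8639 and 11990 normalized reads in Control3 and 3766 and 5325 after MS-275. Its log2 differences were -1.20 within replicate number 1 and -1.17 within number 2 (log2 fold change -1.18, SE 0.36, adjusted p = 0.357). PLOD2 and LOXL1 were the only members with a difference past 1 in the same direction within both numbers, which 11.7% of all genes showed, 6.81% above 1 and 4.85% below -1. LOX followed the replicate number, at 47208 in Control3 and 47516 in MS-275 of number 1 and at 19562 and 16674 of number 2. Its within-number differences were 0.0094 and -0.23, whereas the libraries of a group differed by more than 2-fold (log2 fold change -0.11, SE 0.69, adjusted p = 0.993). LOXL2 was at 31115 and 32527 and then 32281 and 39297, which overlapped, with differences of 0.053 and 0.27 (log2 fold change 0.16, SE 0.29, adjusted p = 0.956). LOXL3 was at 644 and 1108 and then 1491 and 1784, both above the controls, with differences of 1.21 and 0.69 (log2 fold change 0.95, SE 0.40, adjusted p = 0.51). LOXL4 was at 1288 and 1507 and then 1099 and 1847, with differences of -0.23 and 0.29 that pointed in opposite directions (log2 fold change 0.03, SE 0.39, adjusted p = 0.995). The summed lysyl oxidases per kb overlapped between groups, at 21877 and 18425 in Control3 and 20351 and 17113 after MS-275.

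P4HA2 had 6473 and 8400 normalized reads in Control3 and 11200 and 14527 after MS-275, with the same difference of 0.79 within both numbers (log2 fold change 0.79, SE 0.33, adjusted p = 0.502). SERPINH1 had 41112 and 53877 in Control3 and 32574 and 37493 after MS-275, with differences of -0.34 and -0.52 (log2 fold change -0.43, SE 0.31, adjusted p = 0.744). The treated libraries of P4HA2 lay above and those of SERPINH1 below their controls, and neither difference passed the test. In the order of levels per kb, SERPINH1 stood first in both groups without overlapping the next gene. PLOD1, LOXL2, LOX and PLOD2 followed after MS-275, each overlapping its neighbour.

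**Figure D3:**
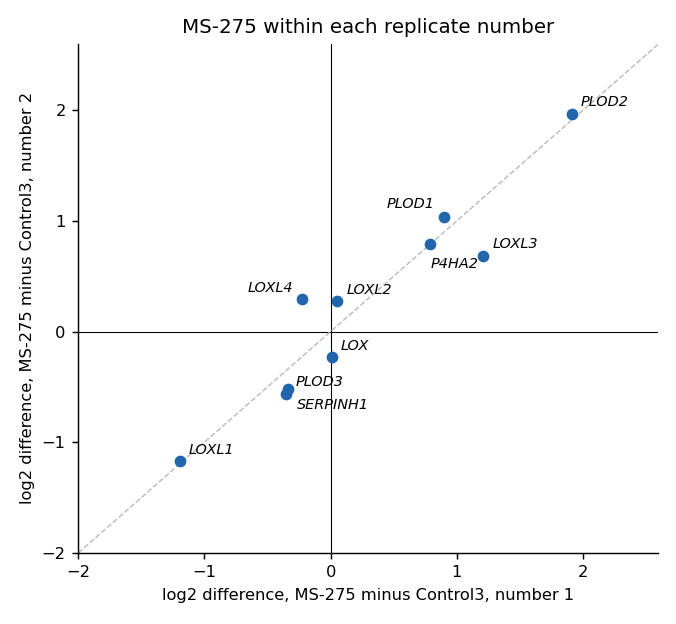
Log2 difference of MS-275 minus Control3 within replicate number 1 (x axis) against number 2 (y axis), with 1 point for each of the 10 members and a dashed line of equality. PLOD2 stood at 1.91 and 1.97 and LOXL1 at -1.20 and -1.17, and LOX lay near 0 on both axes.

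Of the other collagen maturation genes 24 were tested after MS-275, with 0 called, 6 at an unadjusted p under 0.05 and a median log2 fold change of 0.17. The smallest p belonged to PCOLCE2, a relative of PCOLCE, at 5.94 and 18.2 and then 124 and 167 (log2 fold change 3.65, SE 0.66, adjusted p = 0.211). PCOLCE itself was at 13166 and 13539 and then 5978 and 5164 (log2 fold change -1.26, SE 0.29, adjusted p = 0.27). Among the substrates 0 of 6 were called. COL1A1 and COL1A2 followed the replicate number as LOX did, with log2 fold changes of -0.26 (adjusted p = 0.986) and -0.36 (adjusted p = 0.908). COL3A1 was at 96802 and 91024 and then 48244 and 25732 (log2 fold change -1.41, SE 0.40, adjusted p = 0.332), and ELN was at 630 and 513 and then 675 and 229 (adjusted p = 0.882).

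All 9 tested hypoxia-responsive genes had a positive log2 fold change after MS-275, with a median of 0.92 and 0 called. Of all 15883 genes, 7840 had a positive value. The treated libraries lay above the controls for 6 of the 9, as for 19.5% of all genes, and the others overlapped. P4HA1 stood both on this list and on that of the other maturation genes. SLC2A1, the glucose transporter GLUT1, was at 5843 and 8115 and then 31892 and 49854 (log2 fold change 2.53, adjusted p = 0.174), and NDRG1 was at 3507 and 7102 and then 14092 and 37242 (log2 fold change 2.20, adjusted p = 0.33). The TGF-β list had a median of 0.57 and 0 of 8 called, and its smallest p belonged to CCN2, a matricellular protein (log2 fold change 1.78, adjusted p = 0.222). The summed fibroblast markers overlapped, at 772615 to 1261770 normalized reads in Control3 and 632542 to 1121040 after MS-275, and COL1A1 and COL1A2 carried much of that sum. Of the 9 single markers, 2 lay above and 2 below the controls without overlap and 5 overlapped. FAP, a surface protease, was at 6176 and 2915 and then 1200 and 453 (log2 fold change -2.52, adjusted p = 0.299), and LUM, the proteoglycan lumican, at 13575 and 9223 and then 67079 and 38191 (log2 fold change 2.18, adjusted p = 0.234). VWF was at 85.2 to 111 in Control3 and 125 to 155 after MS-275, EPCAM at 17.2 to 17.8 and then 5.98 to 14.5, and CD14 at 0 to 18.2 and then 9.68 to 14. The part of these markers in the results was not tested. Without Control3 replicate 1, which left a single control library, the log2 fold change of PLOD2 was 2.34. PLOD2 was called higher in a single limma fit over all 12 libraries (adjusted p = 0.00956). In that fit 220 of 11989 genes were called higher and 267 lower after MS-275. It pooled 1 variance per gene over the 3 experiments, so its p-values may understate the spread of the MS-275 libraries.

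After pyruvate, 1 of the 10 genes was called higher and 4 were called lower. All 10 passed the adjusted p, as 80.9% of all genes did, and 54.1% of the 12013 genes tested were called, 31.0% higher and 23.1% lower. PLOD2 was the gene called higher, and LOXL1, LOXL2, LOXL4 and P4HA2 were called lower. The groups were free of overlap for all 10 members, 4 higher and 6 lower, and for 90.5% of all genes, 45.2% higher and 45.3% lower. The median log2 fold change of the members was -0.81, beside -0.0069 over all genes.

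Fold changes after pyruvate followed the GC content of the transcript across genes. Spearman's rho across 11888 genes was -0.72, beside -0.11 for A485 and -0.016 for MS-275, and genes of a library are not independent replicates. With genes split into 10 bins of GC content, the bin of lowest GC had a median log2 fold change of 1.72 and the bin of highest GC had -1.21. PLOD2 and LOX have transcripts of 37.7% and 39.6% GC, P4HA2 of 45.0%, and the other members of 55.4% to 67.0%. With a smooth trend on transcript length and GC content removed from each library, SERPINH1 was called higher and LOX and P4HA2 were called lower. Of the 11888 genes on that scale, 1752 were called higher and 1697 lower. The value with this trend removed is given beside each member, since the trend and the treatment cannot be told apart in these 4 libraries.

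**Figure D4:**
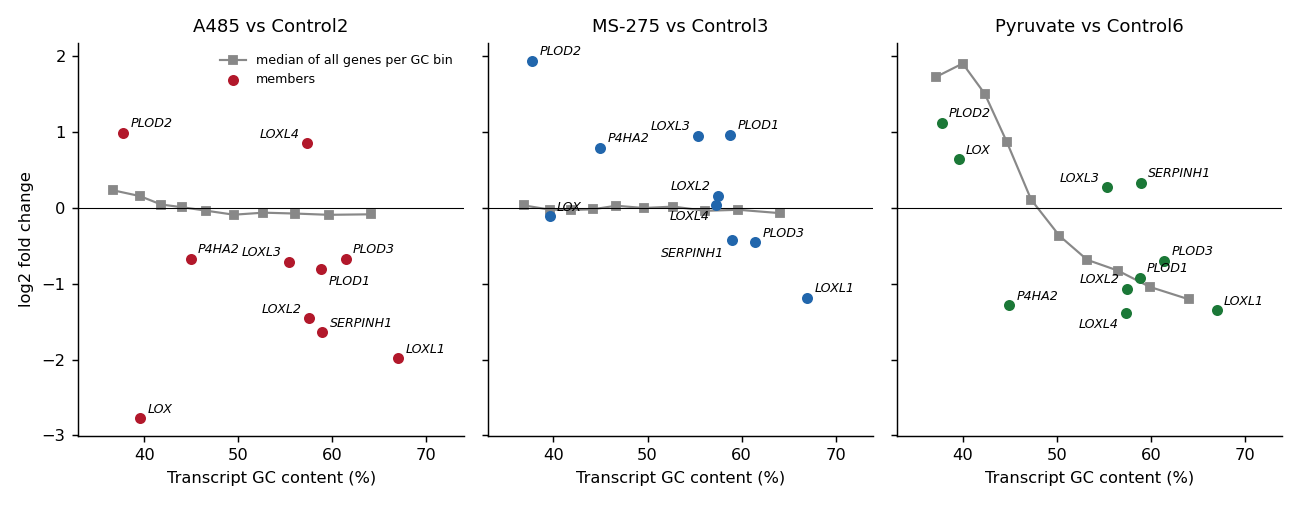
Log2 fold change against transcript GC content (%), with 1 panel for each comparison. Coloured points are the 10 members, and grey squares joined by a line are medians of all genes in each of 10 bins of GC content. After pyruvate the median was 1.72 in the lowest bin, 1.90 in the next and -1.21 in the highest. After MS-275 the medians stayed close to 0.

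LOX had 12839 and 13707 normalized reads in Control6 and 20554 and 20805 after pyruvate. Its log2 fold change was 0.64 (SE 0.054, adjusted p = 6.12e-07) as deposited, and -1.24 (adjusted p = 1.66e-09) with the trend removed, so its direction depended on that step. LOXL1 went from 9370 and 10118 to 3854 and 3772 (log2 fold change -1.35, SE 0.063, adjusted p = 4.81e-09), and with the trend removed its value was -0.03 (adjusted p = 0.647). LOXL2 went from 100359 and 97084 to 46715 and 47798 (log2 fold change -1.06, SE 0.047, adjusted p = 3.38e-09), and the value without the trend was -0.33. LOXL4 went from 1765 and 1692 to 682 and 637 (log2 fold change -1.39, SE 0.095, adjusted p = 9.5e-08), or -0.64 without the trend. All 3 were thus lower after pyruvate as deposited, and all 3 lost their call once the trend was removed. LOXL3 was at 654 and 579 and then 750 and 739 (log2 fold change 0.27, SE 0.11, adjusted p = 0.0453), or 0.93 without the trend.

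PLOD2 had its lowest levels in this experiment, 1380 and 1310 normalized reads in Control6 and 3003 and 2855 after pyruvate, although levels of separately normalized experiments are set side by side here without a test. Its log2 fold change was 1.12 (SE 0.078, adjusted p = 1.17e-07) as deposited and -0.59 (adjusted p = 3.77e-05) with the trend removed. PLOD1 went from 28898 and 28765 to 15348 and 15090 (log2 fold change -0.92, SE 0.050, adjusted p = 1.38e-08), and its value without the trend was -0.024 (adjusted p = 0.559). PLOD3 went from 7498 and 7245 to 4580 and 4499 (log2 fold change -0.70, SE 0.060, adjusted p = 6.5e-07), against 0.33 without the trend. PLOD2 and PLOD3 therefore changed direction with the trend, in opposite ways. The summed lysyl hydroxylases per kb were 12737 and 12583 in Control6 and 7582 and 7427 after pyruvate. PLOD2 held 2.89% and 2.78% of that sum in Control6 and 10.6% and 10.3% after pyruvate, without any removal of the trend. With it removed, the log2 change of PLOD2 was below that of PLOD1 by 0.57 and below that of PLOD3 by 0.92, so the direction of this share turned.

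P4HA2 and SERPINH1 were called on the scale without the trend, in opposite directions. P4HA2 had 15488 and 15626 normalized reads in Control6 and 6548 and 6208 after pyruvate (log2 fold change -1.29, SE 0.056, adjusted p = 3.02e-09), and with the trend removed it was lower still, at -2.28 (adjusted p = 1.02e-10). Both scales called it lower. SERPINH1 had 28026 and 28645 in Control6 and 35619 and 35813 after pyruvate (log2 fold change 0.33, SE 0.048, adjusted p = 5.27e-05), and with the trend removed it was called higher at 1.34 (adjusted p = 2.21e-10). It was higher on both scales and past the fold change minimum on the second. P4HA2 was not called at equal library totals (-0.98) or under quantile normalization (-0.96), where the difference still passed the adjusted p.

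P4HA1, the other main catalytic subunit of prolyl 4-hydroxylase, went the other way after pyruvate, from 1293 and 1517 normalized reads to 12103 and 12022 (log2 fold change 3.11, SE 0.080, adjusted p = 1.14e-10), or 1.54 with the trend removed. The ratio of P4HA2 to P4HA1 per kb was 7.23 and 6.21 in Control6 and 0.33 and 0.31 after pyruvate. In the other experiments this ratio stayed below 1 in every library, at 0.28 and 0.36 in Control2, 0.19 and 0.27 after A485, 0.38 and 0.32 in Control3, and 0.34 and 0.34 after MS-275. The Control6 libraries thus stood apart from the other 10 libraries in this ratio, a value chosen after it was seen and not tested.

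Of the other collagen maturation genes 21 were tested after pyruvate, and 7 were called higher and 2 lower. Beside P4HA1, the greatest differences among them were in FKBP7, SEC24D and P3H2. FKBP7, a prolyl isomerase of the endoplasmic reticulum, went from 73.7 and 44.5 to 499 and 544 (log2 fold change 3.16, adjusted p = 3.64e-07), or 1.57 with the trend removed. SEC24D, a coat protein of the vesicles that export procollagen, went from 1265 and 1482 to 7092 and 7178 (log2 fold change 2.38, adjusted p = 6.88e-10), or 1.59 with the trend removed. P3H2, a prolyl 3-hydroxylase, went from 9314 and 9388 to 1799 and 1918 (log2 fold change -2.33, adjusted p = 1.79e-10), or -1.95 with the trend removed. These 4 genes kept their call and direction on both scales. The median of the list was -0.29 as deposited and 0.21 with the trend removed.

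Among the substrates 0 of 5 tested genes were called after pyruvate, and ELN was not listed. COL1A1 was at 291571 and 276408 and then 316388 and 318909 (log2 fold change 0.16, adjusted p = 0.00784), COL1A2 had a value of -0.44 (adjusted p = 2.87e-06), and COL3A1 had -0.78 (adjusted p = 3.09e-08). With the trend removed these values were 0.82, 0.010 and -0.51. Of the hypoxia-responsive genes 2 were called higher and 3 lower, led by P4HA1 and by SLC2A1 (log2 fold change -1.66, adjusted p = 2.34e-10), and with the trend removed these were the only ones called, SLC2A1 at -1.05. Of 7 TGF-β targets 1 was called higher and 3 lower, among them TAGLN (log2 fold change -1.07, adjusted p = 4.57e-09). With the trend removed 3 were called higher and 1 lower, and TAGLN was at -0.41 and no longer called. The summed fibroblast markers were 880868 to 896787 normalized reads in Control6 and 775718 to 778816 after pyruvate, where 4 of the 9 lay above and 5 below their controls. VWF, the only listed endothelial marker, was at 104 to 164 and then 33.4 to 46.2, and no epithelial or leukocyte marker was listed. The part of these differences in the results was not tested.

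**Figure D5:**
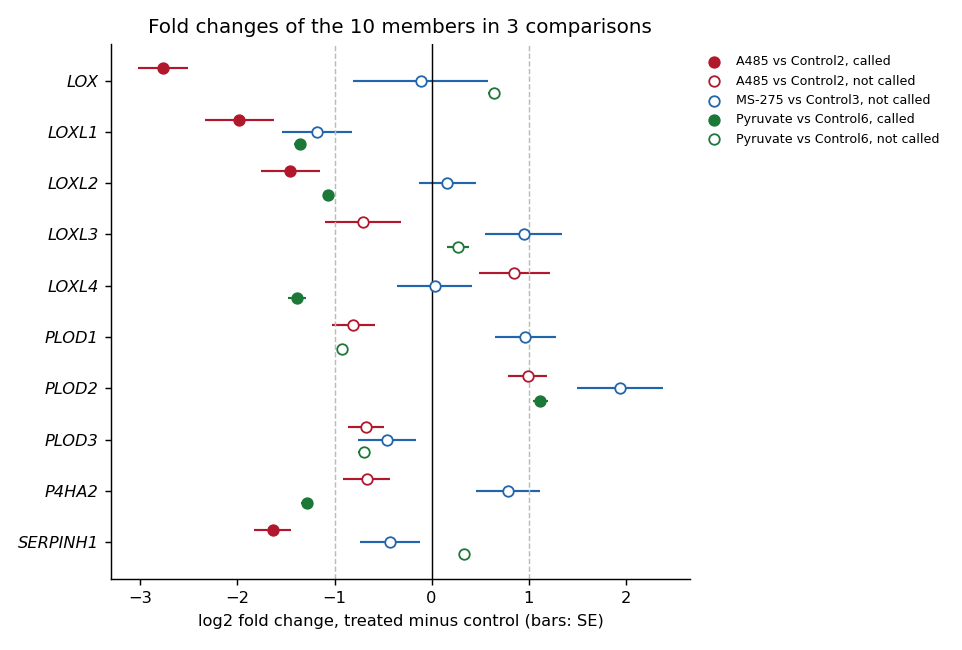
Log2 fold change, treated minus control, of the 10 members in the 3 comparisons, as deposited and with no trend removed. Bars are standard errors, filled points are called, open points are not, and dashed lines mark -1 and 1. PLOD2 lay to the right of 0 in all 3, at 0.99, 1.94 and 1.12, although the pyruvate value was -0.59 with the GC trend removed, and LOXL1 lay to the left.

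The fold changes of the 3 comparisons, which share no control library, were then compared. PLOD2 was the 1 member whose treated libraries lay above the controls in all 3 comparisons, and LOXL1 and PLOD3 were the 2 members that lay below them in all 3. Of 11989 genes tested in all 3, 2.03% lay above and 2.50% lay below throughout. With the GC trend removed, the pyruvate value of PLOD2 and of PLOD3 changed sign and that of LOXL1 was -0.03, so these patterns did not hold on that scale.

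The difference between the effects of A485 and MS-275 passed an adjusted p of 0.05 for 0 members in limma, with 3.81% of all genes passing. This fit held no replicate block, and the count of members was higher with one, as given below. At an unadjusted p under 0.05 there were 6 members, beside 17.6% of all genes, of which PLOD1 came nearest to the threshold, with a difference of -1.77 (SE 0.39, adjusted p = 0.0566). Between A485 and pyruvate 3 members differed, where 65.4% of all genes did. These were LOX (difference of log2 fold changes -3.41, SE 0.28, adjusted p = 2.56e-05), SERPINH1 (-1.97, SE 0.19, adjusted p = 4.82e-05) and LOXL4 (2.24, SE 0.43, adjusted p = 0.00195). For PLOD2 the same difference was -0.13 (SE 0.19, adjusted p = 0.563). These values depended on the length and GC trend. With it removed, PLOD2 was at 0.86 after A485 and -0.59 after pyruvate, and LOX at -2.75 and -1.24. Between MS-275 and pyruvate 4 members differed, where 41.1% of all genes did. These were P4HA2 (2.08, SE 0.29, adjusted p = 0.00242), PLOD1 (1.89, SE 0.27, adjusted p = 0.00275), LOXL2 (1.23, SE 0.25, adjusted p = 0.00981) and LOXL4 (1.42, SE 0.38, adjusted p = 0.0242). Each contrast pooled 1 variance per gene over both experiments. For PLOD1 the SE of 0.27 lay below that of the MS-275 effect alone, 0.31. The p-values of this contrast may thus understate the spread of the MS-275 libraries. With the length and GC trend removed, 2, 10 and 6 members passed in these 3 contrasts. The share of all genes passing on that scale is not given here, so these counts do not set the members apart from other genes.

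The genes with the most similar pattern over the 12 libraries were found among 11979 genes, by the root mean square difference of log2 values with each experiment centred on its control mean. For LOX these were MIR100HG (0.30) and ATP8B1 (0.31), which had log2 fold changes of -2.50 and -2.19 after A485. For PLOD2 they were ARHGAP26 (0.32) and RALGAPA2 (0.33), with 1.79 and 1.26 after MS-275. For SERPINH1 they were POLR1E (0.14) and YARS1 (0.15), with -1.76 and -1.75 after A485. The distance was smaller for SERPINH1 than for LOX and PLOD2, and it is a description over libraries that share experiments.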

How the data were processed

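RNA was extracted from cells with TRIzol. The authors trimmed reads with Trim Galore (version 0.6.10), aligned them to hg38 with HISAT2 (version 2.2.1), sorted them with SAMtools (version 1.7), counted reads per gene with featureCounts (version 2.0.6) and normalized the counts with DESeq2 (version 1.34.0). The deposited values are a signal, namely counts divided by 1 size factor per library and normalized separately in each experiment. The gene annotation and strand setting of the counting are not given in the sources used here, so reads of overlapping or antisense genes cannot be separated. There were 16683 genes in the A485 list, 16417 in that of MS-275 and 12013 in that of pyruvate, and the second-highest library held at least 10, 10 and 20 reads for every gene.

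Libraries were grouped by their titles. Values were taken as log2(value + 1), a scale on which changes of low genes come out too small. A gene entered the test where its mean over the 4 libraries reached 10. The tests used R (version 4.3.3) and limma (version 3.58.1), with an intensity trend and no covariate, and were two-sided, and p-values were adjusted over all genes tested by the Benjamini-Hochberg method. Differences between effects were limma contrasts over 8 libraries, with 1 variance per gene pooled over both experiments. In 100% of values the deposited number was a whole multiple of 1 read, within 0.001 reads, and for A485 these reads were also tested with edgeR (version 4.0.16) and DESeq2 (version 1.42.0) as alternatives. For the other 2 experiments the recovery did not pass a stricter check, and neither tool was applied. No pair of replicates was identical or within sampling noise (chi-square per gene 4.54 to 458). The tests were also run on simulated data, and the outcome is not given here. Each simulated library had independent noise, with no deviation shared by replicate number and no GC trend.

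The 10 members, the gene lists and the tests were chosen with earlier results of these data known. All members are named. Of the other maturation genes, the text names up to 4 called genes with the greatest fold change and a higher-group mean of 100 or more, or the 2 with the smallest p where fewer than 2 were called. COL1A1, COL1A2, COL3A1 and ELN are named in each comparison, and the 2 genes with the smallest p of each reference list, except 1 gene that is not reported here. Transcript lengths, GC content and the canonical starts came from GENCODE on hg38, for 98.5%, 98.4% and 99.0% of the genes tested, and promoter sequences from RefSeq on GRCh38.p14, which matched 9 of the 10 members. The alternatives were pseudocounts of 0.1 and 10, no filter or a mean of 50, recomputed size factors, equal totals, quantile normalization, a spline of 4 degrees of freedom on transcript length and on GC content taken out of each library, no intensity trend, a replicate block, another minimum fold change (0.58, or none), a single fit, and leaving out each library. Columns for mouse muscle were not used here. Tables and plots were made in Python (version 3.11.15) with numpy (version 2.4.6), pandas (version 2.3.3) and matplotlib (version 3.10.9).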

Additional observations from a re-analysis of the deposited data

How the results depend on the processing

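Of 470 member log2 fold changes under alternatives, 432 kept their direction and side of the threshold, 19 lost a call, 10 gained one and 9 changed sign. The filters, the intensity trend, the block and the single fit leave a log2 fold change as it is, so direction could not change there. After MS-275 no member was called in the main fit, so no call could be lost. The 432 is therefore partly fixed in advance. At equal library totals the all-gene median was 0.40 for A485, -0.15 for MS-275 and 0.30 for pyruvate. There the members' median was -0.36, -0.045 and -0.50, and 3 members were called after pyruvate, beside 6143 of 12013 genes. Relative to the shifted medians of all genes, the members' medians stayed lower for A485 and pyruvate. The cause of the other changes was not tested.

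For A485, 2 members were called without the intensity trend, and 0 to 3 with 1 library left out, where the members' median ranged from -1.15 to -0.60. For MS-275, a single fit over 12 libraries called 1 member, beside 487 of 11989 genes. With 1 library left out, the members' median ranged from 0.17 to 0.36. For pyruvate, 3 members were called with the length and GC trend removed, 8 at a minimum of 0.58 and 10 with no minimum. Over all genes, 3449 of 11888 were called with the trend removed. Of 12013 genes, 4470 were called higher and 4096 lower at a minimum of 0.58, and 9713 were called with no minimum. The members' median after pyruvate was -0.41 under quantile normalization and -0.18 with the trend removed. Leaving out 1 library called 5 members each time, with a median of -0.82 to -0.80.

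Sign changed for LOX (-1.24), PLOD2 (-0.59) and PLOD3 (0.33) after pyruvate with the trend removed. After MS-275 it changed for LOXL2 under quantile normalization (-0.068) and for LOXL4 at equal totals (-0.11). It also changed without Control3 replicate 1 (LOX 0.52, LOXL4 -0.081) and without MS-275 replicate 2 (LOX 0.64, LOXL4 -0.34). With 1 library left out, the value for LOX ranged from -0.87 to 0.64 and that for LOXL4 from -0.34 to 0.41, with no call.

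For differences between effects, the trend removed gave 2 members for A485 minus MS-275 and 10 for A485 minus pyruvate, and a single fit gave 5 for A485 minus MS-275. The share of all genes at these settings, or with 1 library left out, is not given here, so the counts do not set the members apart. Leaving out 1 library gave 0 for A485 minus MS-275, 3 to 5 for A485 minus pyruvate and 2 to 5 for MS-275 minus pyruvate.

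Nothing in the labels says that replicate numbers pair libraries. Deviations of libraries with the same number correlated across genes at r = 0.32 for A485, 0.73 for MS-275 and 0.002 for pyruvate. With the number as a replicate block, 4, 2 and 5 members were called after A485, MS-275 and pyruvate, and those after MS-275 were PLOD2 (adjusted p = 3.08e-10) and LOXL1 (adjusted p = 1.38e-07). Over all genes the block called 2486 after A485 and 6513 after pyruvate, and after MS-275 it raised the calls from 0 to 2183. The block gave 8, 5 and 8 members for A485 minus MS-275, A485 minus pyruvate and MS-275 minus pyruvate. No share of all genes is given beside these contrast counts. The counts of calls over all genes for A485 were 840 without the intensity trend and 2578 at equal totals, beside 1667, and 1664 in edgeR and 2325 in DESeq2. For pyruvate they were 3449 with the trend removed, beside 6503. For MS-275 and pyruvate, edgeR and DESeq2 were not run. With 2 libraries in each group, a difference that missed the threshold is not shown to be absent.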

Other observations

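The level of each enzyme was also set against its collagen substrate, as a ratio to COL1A1 per kb of transcript within each library. These ratios were chosen after the member values were seen and carry no test. PLOD2 per COL1A1 was 0.037 and 0.027 in Control2 and 0.22 and 0.21 after A485. The same ratio was 0.024 and 0.051 in Control3 and 0.12 and 0.23 after MS-275, so the treated libraries lay above the controls in both experiments. In Control6 it was 0.0075 in both libraries, and after pyruvate 0.015 and 0.014, but with the length and GC trend removed the log2 change of this ratio was -1.41, so its direction turned.

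SERPINH1 per COL1A1 lay close together in the A485 experiment, at 0.26 and 0.22 in Control2 and 0.27 and 0.26 after A485, although both genes were called lower. LOX per COL1A1 was lower after A485, at 0.15 and 0.11 in Control2 and 0.057 and 0.073 after treatment. After pyruvate it was higher, at 0.051 and 0.058 in Control6 and 0.076 in both treated libraries, but with the length and GC trend removed the log2 change was -2.06 and the ratio turned lower. In the MS-275 experiment SERPINH1 per COL1A1 followed the replicate number, at 0.23 and 0.24 in replicate 1 of Control3 and MS-275 and at 1.12 and 0.88 in replicate 2. LOX per COL1A1 overlapped there, at 0.11 and 0.16 in Control3 and 0.14 and 0.16 after MS-275.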
